A study of Mus musculus with 24 samples.

Results

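This account covers 28 mouse genes of cholesterol synthesis, sensing, transport and export in astrocytes and neural stem cells. The genes were chosen by name from the known pathway and were found by gene identifier among the 49671 genes of the count table. After the filter on low counts 19691 genes were tested, and all 28 were among them. They comprise 18 synthesis enzymes (8 from acetyl-CoA to squalene and 10 from squalene to cholesterol), 3 genes of sterol sensing (Srebf1, Srebf2 and Insig1), 2 of transport and storage inside the cell (Stard4 and Soat1) and 5 of the liver X receptors (LXRs) and export (Nr1h2, Nr1h3, Abca1, Abcg1 and Apoe).

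RNA-seq was carried out on 24 libraries in 6 groups of 4, to examine what culture, age and origin from stem cells do to the transcriptome of mouse astrocytes. Neonatal astrocytes came from wild-type C57BL/6J pups of 4 to 8 days and adult astrocytes from C57BL/6J mice of 100 to 140 days, both by magnetic sorting for the surface antigen ACSA-2. They were either snap-frozen after isolation (neoAC direct, AdAC direct) or kept for 7 to 10 days in AstroMACS medium (neoAC CellC, AdAC CellC). Neural stem cells (NSC) were derived from GSC-5003, a mouse embryonic stem cell line of C57BL/6N origin, and grown with EGF and FGF in N2B27 medium at passages 50 to 60. The embryonic stem cell-derived astrocytes, called AGES, were made from such NSCs by BMP4, which was given for 3 to 5 days in N2B27. A replicate was a separate isolation from 2 pooled mice or an independent culture of the 1 stem cell line. Neonatal and adult brains were dissociated with different kits, and AGES and the cultured primary cells were kept in different media, so age and kit cannot be told apart here, nor can origin and medium.

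Cholesterol is built from acetyl-CoA through mevalonate, isoprenoids and squalene, and its enzymes are switched on together by the transcription factor SREBP2, which is released from the endoplasmic reticulum when membranes run low in sterols. INSIG proteins hold SREBPs back when sterols are plentiful, and the LXRs, which sense oxysterols, turn on the exporters ABCA1 and ABCG1 and the lipid carrier ApoE. In the brain, which is closed to lipoproteins of the blood, astrocytes are known as a main source of cholesterol and of ApoE particles for other cells.

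The promoters of 23 of the 28 genes were found by symbol in a RefSeq promoter table (build GRCm38.p6), among them those of 15 of the 18 enzymes. Those of Fdps, Fdft1, Sqle, Stard4 and Abcg1 were not used here. In windows from 250 bases before to 50 bases after each start, searched on both strands, the NF-Y box CCAAT was found in 18 of the 23 genes, in 14 of the 15 enzymes and in 4 of the 8 others, against 41.058% of 27025 genes in the table and 42.274% of those among the genes tested. The Sp1 box GGGCGG was found in 19 of the 23 genes and in 14 of the 15 enzymes, against 38.202% of all genes in the table and 63.712% of the tested ones. A sterol regulatory element, searched as TCACNCCAC, was found in 1 of the 23 genes, Hmgcs1, against 1.436% of all genes. The E-box CACGTG was found in 5 of the 23 against 8.093%, and an LXR element, searched as a direct repeat of AGGTCA with a spacer of 4 bases, in 0 of the 23 against 0.015%. No 2 of these matches overlapped. A match is a match of letters, and a window without one says only that those letters were not found there. Genes with several promoters in the table count as having a motif when any of them holds it.

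The 250 bases before the start of 4 enzyme genes are printed below, 5′ to 3′ in the direction of transcription, with the sterol regulatory element and the NF-Y boxes (CCAAT, or ATTGG where the box lies on the other strand) in capitals. Hmgcs1 (chr13:119690101-119690350, plus strand) is shown as the gene with the sterol regulatory element, which begins 137 bases before the start. Mvk (chr5:114444019-114444268, plus strand) is shown for its 5 NF-Y boxes, and Tm7sf2 (chr19:6067851-6068100, minus strand) and Ebp (chrX:8193513-8193762, minus strand) as the enzymes with the largest fall and with the only rise in cultured neonatal cells.
Hmgcs1: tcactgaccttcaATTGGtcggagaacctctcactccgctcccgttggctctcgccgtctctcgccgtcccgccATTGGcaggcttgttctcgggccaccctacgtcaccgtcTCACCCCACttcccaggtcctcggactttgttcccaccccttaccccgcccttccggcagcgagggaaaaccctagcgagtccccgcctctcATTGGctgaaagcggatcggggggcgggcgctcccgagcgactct
Mvk: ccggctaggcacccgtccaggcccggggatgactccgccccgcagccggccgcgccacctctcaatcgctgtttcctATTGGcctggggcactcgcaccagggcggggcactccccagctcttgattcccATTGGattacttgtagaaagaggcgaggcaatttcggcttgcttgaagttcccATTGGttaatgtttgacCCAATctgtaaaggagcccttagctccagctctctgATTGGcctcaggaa
Tm7sf2: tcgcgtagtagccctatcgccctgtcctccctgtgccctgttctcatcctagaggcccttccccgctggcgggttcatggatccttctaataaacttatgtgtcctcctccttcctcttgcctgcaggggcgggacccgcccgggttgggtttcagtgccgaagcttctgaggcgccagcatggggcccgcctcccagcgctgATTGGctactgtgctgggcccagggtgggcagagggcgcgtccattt
Ebp: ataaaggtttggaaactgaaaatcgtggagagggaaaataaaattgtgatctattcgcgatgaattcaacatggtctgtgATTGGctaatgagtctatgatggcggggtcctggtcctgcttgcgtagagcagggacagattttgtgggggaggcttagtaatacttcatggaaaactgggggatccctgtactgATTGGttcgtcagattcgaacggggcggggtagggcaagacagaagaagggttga
Tm7sf2 held 1 NF-Y box and Ebp held 2, and their transcripts moved in opposite directions in neonatal culture.

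Library totals lay between 27904126 and 37997368 counts, with a median of 32239904, and the lowest count of any of the 28 genes in a library was 2. The summed level of 10 astrocyte markers was 55147 to 59892 CPM (counts scaled to a common library size) in AGES, where Gfap made up most of it, 21740 to 24561 in neoAC direct, 16343 to 17146 in AdAC direct and 7550 to 8750 in neoAC CellC. In AdAC CellC it was 954 to 1461 CPM, below the 1979 to 2517 of the NSCs. The 9 oligodendrocyte markers summed to 28770 to 32370 CPM in AdAC direct and 4574 to 11680 in AdAC CellC, against 277 to 406 in the neonatal groups and 19.6 to 46.3 in AGES and NSCs, and each of the 9 was detected in every group. The 8 markers of microglia and macrophages summed to 32.1 to 97.9 CPM in every group. The 6 markers of mural cells and fibroblasts summed to 1114 to 1533 CPM in AdAC CellC, 282 to 322 in AdAC direct, 346 to 650 in the neonatal groups and 1.24 to 1.84 in AGES and NSCs. The microglial gene C1qb was at 0 in AGES and NSCs, Cx3cr1 and Aif1 were at 0 in NSCs, and the fibroblast gene Lum was at 0 in AGES. The part of these other cells in the results below was not tested.

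The synthesis enzymes were high in neoAC direct and in NSCs and lowest in cultured neonatal cells. Their mean log2 CPM was 7.17 ± 0.030 (SD, n = 4) in neoAC direct and 7.05 ± 0.21 in NSCs, between 5.75 ± 0.041 and 5.94 ± 0.031 in AGES, AdAC direct and AdAC CellC, and 5.27 ± 0.105 in neoAC CellC. As a share of all counts, the 18 enzymes took a median of 0.419% in neoAC direct and 0.3705% in NSCs, against 0.183% in AGES, 0.173% in AdAC CellC, 0.148% in AdAC direct and 0.135% in neoAC CellC. The highest group was neoAC direct for 12 of the 18 enzymes, NSC for 5 and AGES for 1, the reductase gene Hsd17b7. The lowest was neoAC CellC for 10, AdAC direct for 4, AGES for 3 and neoAC direct for 1, Ebp. Of the 4 NSC libraries, replicate 3 stood apart: it was the lowest of the group for 16 of the 18 enzymes, by a median of 0.447 on the log2 scale relative to the other 3.

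**Figure D1:**
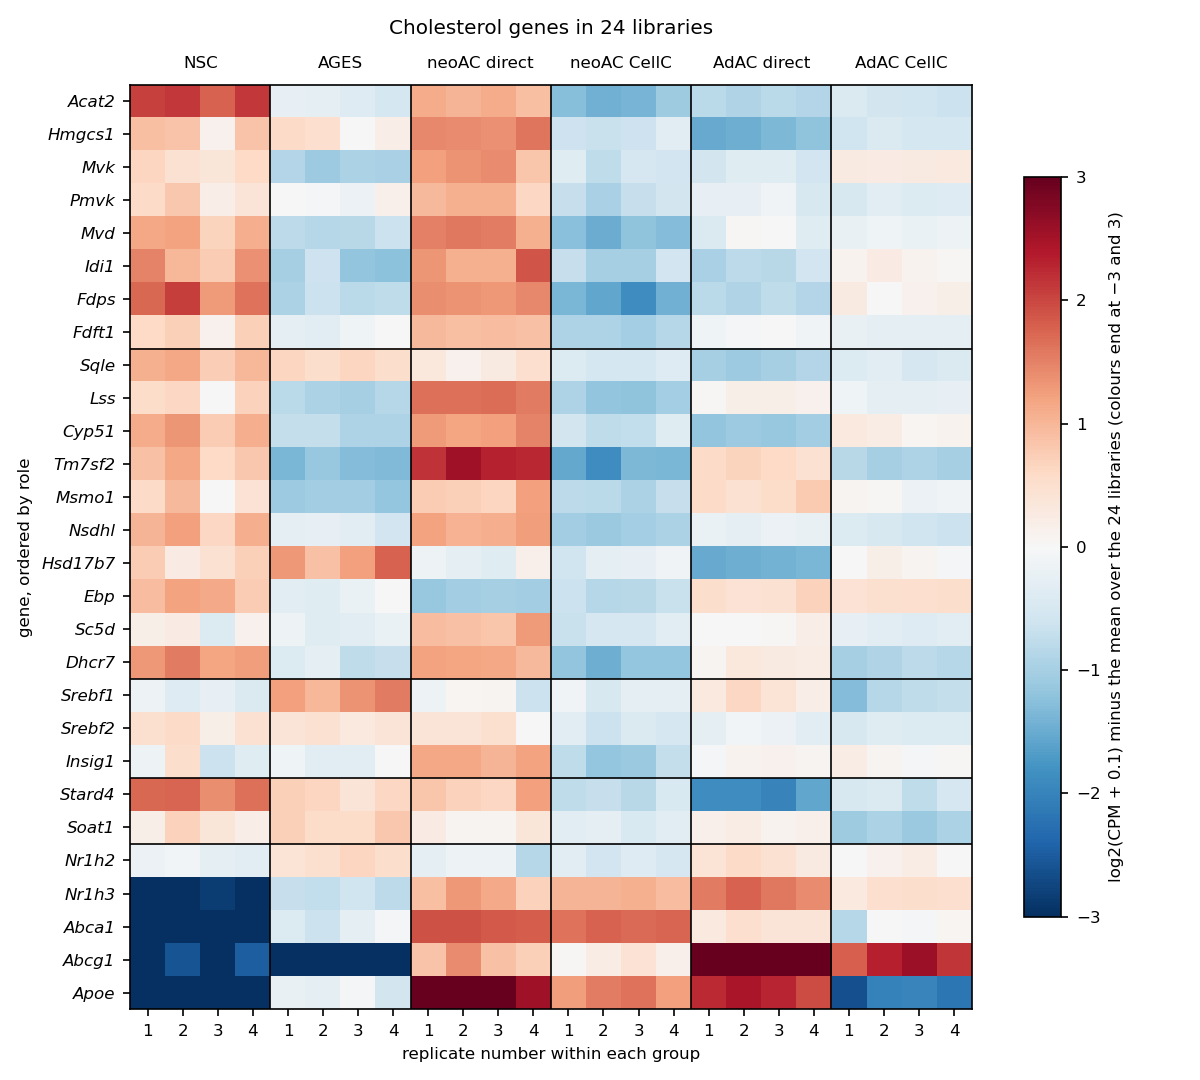
Each of the 28 genes (ordered by role, lines between roles) in each of the 24 libraries (columns, 4 per group), coloured by log2(CPM + 0.1) minus the gene's mean over all libraries. Most enzymes are red in neoAC direct and NSC and blue in neoAC CellC, while Ebp is blue in neoAC direct and Apoe, Abca1 and Nr1h3 are lowest in NSC.

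**Figure D2:**
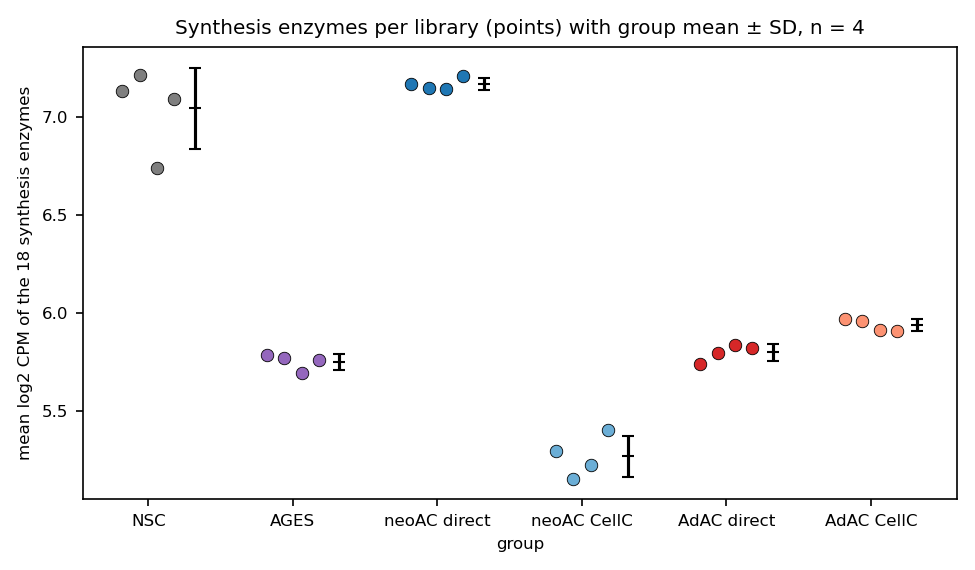
Mean log2 CPM of the 18 synthesis enzymes in each library (points) with the group mean ± SD (n = 4). NSC and neoAC direct lie between 6.741 and 7.215, the other 4 groups between 5.153 and 5.967, and the lowest NSC point is replicate 3.

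Per kilobase of exon, which allows levels of different genes to be set side by side, Apoe was the most abundant of the 28 genes in 5 groups, with 4818 CPM per kb in neoAC direct, 2705 in AdAC direct, 1538 in neoAC CellC, 479 in AGES and 127 in AdAC CellC. In NSCs, where Apoe was at 31.5 CPM per kb, Hmgcs1 led with 202. Hmgcs1, which joins acetyl-CoA units into the precursor of mevalonate, had the highest mean of the enzymes on this scale in all 6 groups. Its level was 337 CPM per kb in neoAC direct. In AdAC direct Hmgcs1 was at 47.1 and the oxidase gene Msmo1 at 45.78 CPM per kb, within the spread. In CPM, Msmo1 had the higher mean there (281 against 217), so their order in AdAC direct rests on the exon lengths used. Srebf1, which encodes the SREBP that mainly serves fatty acid synthesis, had a higher mean than Srebf2 on this scale in all 6 groups. Srebf1 and Srebf2 stood at 241 and 74.8 CPM per kb in AGES. In NSCs they were at 79.4 ± 7.07 and 77.2 ± 8.95 (SD), within the spread. Before division by exon length, Srebf2 had the higher mean CPM in NSCs, neoAC direct and AdAC CellC.

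In neonatal astrocytes, culture was accompanied by a fall of nearly the whole synthesis pathway. Of the 28 genes, 22 were lower in neoAC CellC than in neoAC direct, 1 was higher and 5 did not pass the test (edgeR's quasi-likelihood test, Benjamini-Hochberg adjusted p under 0.05 over all genes tested). Over all genes, 31.3% were lower and 34.4% higher in this comparison. Among the 18 enzymes 16 were lower, Ebp was higher and Hsd17b7 did not pass, and the median log2 fold change of the 18 was -1.96, against 0.041 for all genes. In bulk RNA, fewer cells of a type and less RNA per cell cannot be told apart. Between neoAC direct and neoAC CellC the astrocyte marker sum went from at least 21740 to at most 8750 CPM, that of 6 neural stem cell markers from 6219 to 7985 to 1745 to 2707 CPM and that of 4 oligodendrocyte precursor markers from 487 to 605 to 109 to 151 CPM. The 5 endothelial markers went from 68.4 to 283 to 3.71 to 6.11 CPM. The 5 markers of ependyma and choroid plexus summed to 677 to 1354 CPM before and 1761 to 2716 after culture. Their part in the neonatal results was not tested.

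Tm7sf2, a sterol reductase acting after lanosterol, had the largest fall (ENSMUSG00000024799, chr19:6062821-6068373 in GRCm38). Its level was 139.9, 179.8, 154 and 149.7 CPM in the neoAC direct libraries and 10.6, 8.46, 12.03 and 11.97 in neoAC CellC (-3.86 ± 0.12, adjusted p = 1.51e-18, with the log2 fold change ± its standard error here and for all fold changes). The groups were far apart, with a 14.5-fold lower fitted level. Fdps, which makes farnesyl diphosphate, was at 32.7, 31.6, 30.5 and 33.3 CPM before and 4.71, 4.09, 3.30 and 4.49 after culture (-2.95 ± 0.14, adjusted p = 1.73e-15). Mvd, which decarboxylates mevalonate diphosphate, went from 114, 121, 115 and 83.8 to 16.6, 14.2, 17.2 and 16.2 CPM (-2.76 ± 0.13, adjusted p = 1.55e-15). Both genes had no overlap between the groups, although Mvd was lower in neoAC direct replicate 4 than in the other 3. Lss, which closes the sterol ring system, went from 260.3 to 282 to 38.2 to 46.1 CPM (-2.72 ± 0.11, adjusted p = 7.01e-17). Dhcr7, a reductase of the last step, went from 199 to 233 to 36.8 to 45.2 (-2.38 ± 0.11, adjusted p = 7.81e-16), and Acat2, the thiolase of the first step, from 112 to 129 to 22.01 to 28.5 (-2.33 ± 0.093, adjusted p = 1.18e-16). The smallest fall among the 16 enzymes was that of Sqle, squalene epoxidase, with -0.78 ± 0.085.

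The sensing genes moved less uniformly. Insig1, itself a target of SREBPs, was at 344, 343, 309.9 and 356 CPM in neoAC direct and 90.4, 68.9, 71.2 and 94.1 in neoAC CellC (-2.06 ± 0.17, adjusted p = 8.95e-11), a 4.17-fold lower level. Srebf2 was at 539, 537, 579 and 410.5 CPM before and 328, 263, 307 and 293 after culture (-0.79 ± 0.098, adjusted p = 1.12e-07). The Srebf2 groups did not overlap, and neoAC direct replicate 4 again lay below its group. Srebf1 did not pass the test (-0.15 ± 0.15, adjusted p = 0.368). Stard4, which carries sterol between membranes, fell (-1.54 ± 0.12), as did Soat1, which esterifies cholesterol for storage (-0.54 ± 0.094). Of the export genes, Apoe fell from 9654, 12729, 11659 and 7165 CPM to 2915, 3549, 3804 and 2880.3 (-1.65 ± 0.20, adjusted p = 8.10e-08), and Abcg1 fell by less (-0.78 ± 0.18). Abca1 was at 696 to 749 CPM in neoAC direct and 609 to 674 in neoAC CellC, ranges that do not overlap, but it did not pass the test (-0.17 ± 0.17, adjusted p = 0.387) in the fit of all 6 groups. In a fit of these 2 groups alone it did (adjusted p = 0.034), but not in that fit with a replicate block (adjusted p = 0.0575). The LXR genes Nr1h2 (-0.12 ± 0.11) and Nr1h3 (-0.021 ± 0.15) did not pass either.

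Ebp, a sterol isomerase on the X chromosome, was the exception (chrX:8185329-8193512). It was at 9.52, 10.2, 10.5 and 10.1 CPM in neoAC direct and 13.4, 11.7, 11.7 and 13.1 in neoAC CellC (0.31 ± 0.099, adjusted p = 0.00865). The ranges did not overlap, but the adjusted p was 0.0699 without the filter on low counts and 0.0613 with a block for the replicate number, so the only rise among the 28 genes depends on these settings. Hsd17b7 was at 44.4 to 63.8 and 38.002 to 53.5 CPM in the same groups (-0.14 ± 0.14, adjusted p = 0.405).

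In adult astrocytes, culture was accompanied by changes of the synthesis enzymes in both directions. With 8 of the 18 higher and 7 lower, their counts lay near the shares of all genes tested. Of the 28 genes, 9 were higher in AdAC CellC than in AdAC direct, 14 were lower and 5 did not pass, where 38.8% of all genes tested were higher and 39.2% lower. Of the 8 enzymes up to squalene, Acat2, Hmgcs1, Mvk, Idi1 and Fdps rose and Fdft1 fell. Of the 10 later enzymes, Sqle, Cyp51 and Hsd17b7 rose and Lss, Tm7sf2, Msmo1, Nsdhl, Sc5d and Dhcr7 fell. The median of the 18 was -0.017 on the log2 scale, against 0 for all genes. Between the same groups the oligodendrocyte marker sum went from at least 28770 CPM in AdAC direct to at most 11680 in AdAC CellC and the astrocyte marker sum from at least 16343 to at most 1461. The neural stem cell markers summed to 543 to 631 CPM before and 1786 to 2178 after culture, and 6 neuronal markers to 12.9 to 15.8 and 51.5 to 79.9 CPM. Their part in the adult results was not tested.

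Hsd17b7, a reductase that acts on sterol intermediates, had the largest rise among the enzymes: 19.9, 20.8, 21.4 and 22.03 CPM in AdAC direct and 57.4, 64.4, 61.1 and 56.1 in AdAC CellC (1.51 ± 0.15, adjusted p = 1.57e-09). Cyp51, the lanosterol demethylase, went from 74.4, 79.2, 77.03 and 82.2 to 207, 199, 178 and 182 CPM (1.29 ± 0.11, adjusted p = 3.29e-11). In both genes each cultured library was well above each directly isolated one. Stard4 rose to a like degree (1.27 ± 0.12), from 15.2 to 20.7 to 36.02 to 45.4 CPM. Tm7sf2, in contrast, went from 46.2, 49.4, 46.8 and 42.3 to 17.3, 15.5, 16.3 and 15.4 CPM (-1.52 ± 0.11, adjusted p = 3.81e-12), and Dhcr7 fell by a similar amount (-1.10 ± 0.10). Fdft1, squalene synthase, was just past the threshold (-0.20 ± 0.093, adjusted p = 0.0484), and it was not called when any 1 of the 8 libraries compared was left out (adjusted p from 0.0515 to 0.113).

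Apoe had the largest change of all 28 genes in the adult comparison (ENSMUSG00000002985, chr7:19696109-19699188). It was at 5723, 6679, 5974 and 4758 CPM in AdAC direct and 197, 301, 310.2 and 274 in AdAC CellC, a 21.4-fold lower fitted level (-4.42 ± 0.22, adjusted p = 3.89e-15). Abcg1, a sterol exporter, went from 110, 109, 109 and 113 to 19.001, 27.7, 32.4 and 24.4 CPM (-2.09 ± 0.17, adjusted p = 2.56e-11). Replicate 1 of AdAC CellC was the lowest of its group for both. Nr1h3, which encodes LXR alpha, went from 8.58 to 11.03 to 3.90 to 4.57 CPM (-1.15 ± 0.15), and Nr1h2, LXR beta, changed less (-0.33 ± 0.11). Abca1, which loads lipid onto ApoE, was at 241, 282, 257 and 258 CPM in AdAC direct and 109, 199, 193 and 206 in AdAC CellC (-0.55 ± 0.17, adjusted p = 0.00428). Here too replicate 1 was far below the other 3 cultured libraries, and its oligodendrocyte marker sum of 4574 CPM was also the lowest of the group, where the others had 8796 to 11680. Srebf1 fell from 636 to 843 to 222 to 337 CPM (-1.28 ± 0.15) and Soat1 from 122 to 131 to 51.8 to 58.8 (-1.18 ± 0.095). Srebf2 (-0.20 ± 0.098, adjusted p = 0.0708) and Insig1 (0.0096 ± 0.16, adjusted p = 0.96) did not pass, although Srebf2 was called lower under 6 alternatives (DESeq2 size factors, no filter, at least 10 counts, DESeq2's Wald test and both fits of the compared groups, adjusted p from 0.00859 to 0.0377).

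The change in culture differed between adult and neonatal cells for 26 of the 28 genes when the difference itself was tested as an interaction of culture and age. For 20 of them the adult change was the higher and for 6 the lower, where 35.4% and 33.2% of all genes tested were called in these directions. For 17 of the 18 enzymes the adult change was higher, with a median difference of 2.10 on the log2 scale over the 18. The largest difference was that of Fdps (3.94 ± 0.19, adjusted p = 2.56e-15), with a log2 fold change of 0.99 in adult and -2.95 in neonatal cells. Cyp51 (3.19 ± 0.15), Idi1, the isomerase of the isoprenoid precursors (3.09 ± 0.25), Hmgcs1 (2.87 ± 0.20) and Stard4 (2.82 ± 0.17) followed. Acat2, Hmgcs1, Mvk, Idi1, Fdps, Sqle, Cyp51 and Stard4 were called in opposite directions in the 2 ages. Insig1 also differed (2.07 ± 0.23, adjusted p = 2.06e-08), and the difference for Srebf2 was smaller (0.60 ± 0.14, adjusted p = 0.000483).

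In the other direction the leading gene was Apoe (-2.77 ± 0.28, adjusted p = 3.58e-09), which fell in culture at both ages and by more in adult cells. Abcg1 (-1.31 ± 0.24), Nr1h3 (-1.13 ± 0.21), Srebf1 (-1.12 ± 0.21), Soat1 (-0.63 ± 0.13) and Ebp (-0.34 ± 0.14, adjusted p = 0.031) had the same sign. The call for Ebp was lost when any 1 of 6 of the 16 libraries was left out (adjusted p from 0.0542 to 0.0897). Abca1 (-0.39 ± 0.23, adjusted p = 0.148) and Nr1h2 (-0.22 ± 0.16, adjusted p = 0.225) did not pass, although both were called under library size only (adjusted p = 0.0482 and 0.028), and Nr1h2 also under the filter of 10 counts per library (0.0494). The adult sums of oligodendrocyte and astrocyte markers given above move with this contrast too.

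**Figure D3:**
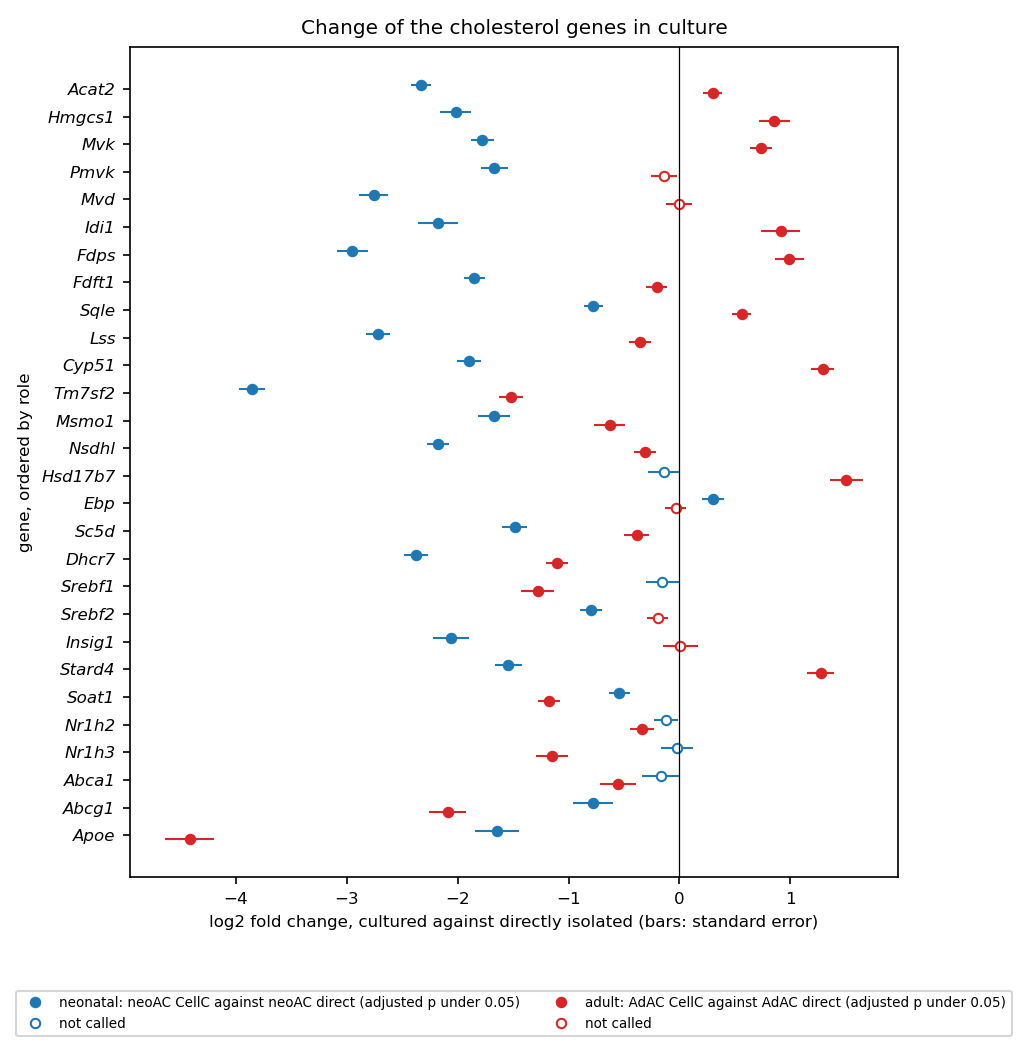
Log2 fold change of the 28 genes in culture (points, with standard error bars) in neonatal cells (neoAC CellC against neoAC direct) and adult cells (AdAC CellC against AdAC direct), with open points where the adjusted p was 0.05 or more. The neonatal points of the enzymes lie between -3.86 and 0.31 and the adult ones between -1.52 and 1.51.

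Before culture, most of these genes were higher in neonatal than in adult cells. In neoAC direct against AdAC direct, 21 of the 28 genes were higher, 5 lower and 2 did not pass, where 35% of all genes tested were higher and 36.4% lower. Of the 18 enzymes 16 were higher, Ebp was lower and Msmo1 did not pass, with a median log2 fold change of 1.44. Hmgcs1 was at 1524, 1493, 1464 and 1713 CPM in neoAC direct and 198, 205, 220.5 and 243 in AdAC direct (2.84 ± 0.14, adjusted p = 5.53e-15), 7.15 times the adult level (ENSMUSG00000093930, chr13:119690379-119708260). The lowest neonatal library was far above the highest adult one. Stard4 was at 95.1 to 144 against 15.2 to 20.7 CPM (2.68 ± 0.13). Cyp51 (2.42 ± 0.11), Fdps (2.23 ± 0.13) and Idi1 (2.16 ± 0.18) were next in size among the genes higher in neonatal cells.

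Ebp was 9.52 to 10.5 CPM in neoAC direct and 28.4 to 33.96 in AdAC direct (-1.59 ± 0.099, adjusted p = 2.54e-13). Abcg1 had the largest difference of the 28: its level was 9.91, 14.6, 10.1 and 8.98 CPM in neoAC direct and 110, 109, 109 and 113 in AdAC direct (-3.33 ± 0.18, adjusted p = 1.53e-14). Abca1 was at 696 to 749 against 241 to 282 CPM (1.48 ± 0.17), so the 2 exporters differed in opposite directions. Apoe was higher in neonatal cells (0.83 ± 0.19, adjusted p = 0.000506), with 7165 to 12729 against 4758 to 6679 CPM. Insig1 (1.07 ± 0.16) and Srebf2 (0.55 ± 0.098) were higher and Srebf1 (-0.52 ± 0.15), Nr1h2 (-0.75 ± 0.11) and Nr1h3 (-0.57 ± 0.15) lower in neonatal cells. Soat1 (0.039 ± 0.093) and Msmo1, a methylsterol oxidase (0.27 ± 0.14), did not pass. The oligodendrocyte markers summed to 28770 CPM or more in AdAC direct and to at most 406 in neoAC direct. The neural stem cell markers, in contrast, summed to 6219 to 7985 CPM in neoAC direct and 543 to 631 in AdAC direct, and the oligodendrocyte precursor markers to 487 to 605 and 35.5 to 44.6 CPM. Their part in the comparison was not tested.

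After culture most of the enzymes were lower in neonatal than in adult cells. In neoAC CellC against AdAC CellC, 18 of the 28 genes were lower, 5 higher and 5 did not pass, where 35.2% of all genes tested were lower and 28.5% higher. Of the 18 enzymes 15 were lower in cultured neonatal cells and 3 (Hmgcs1, Sqle and Sc5d) did not pass, with a median of -0.70, against -0.085 for all genes. Fdps was at 4.71, 4.09, 3.30 and 4.49 CPM in neoAC CellC and 14.7, 12.2, 13.4 and 13.99 in AdAC CellC (-1.71 ± 0.13, adjusted p = 4.78e-11). Ebp (-1.25 ± 0.097) and Mvd (-1.14 ± 0.12) were the next enzymes by size. Pmvk (-0.32 ± 0.12, adjusted p = 0.0232) and Hsd17b7 (-0.35 ± 0.14, adjusted p = 0.0379) were close to the threshold and were not called under either other scaling of the libraries. Leaving out neoAC CellC replicate 2 or AdAC CellC replicate 2 or 4 ended the call for Pmvk, and leaving out any 1 of replicates 1, 2 and 3 of either group ended that for Hsd17b7 (adjusted p from 0.0507 to 0.144). Insig1 was lower in the neonatal cultures (-0.998 ± 0.16, adjusted p = 8.48e-06), with 68.9 to 94.1 against 147 to 180.5 CPM, while Srebf2 (-0.053 ± 0.098, adjusted p = 0.656) did not pass.

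Among the 28 genes, Apoe, Abcg1 and Abca1 had the largest differences between the cultured groups. Apoe was at 2880.3 to 3804 CPM in neoAC CellC and 197 to 310.2 in AdAC CellC (3.60 ± 0.21, adjusted p = 4.05e-13). Abca1 was at 609 to 674 against 109 to 206 CPM (1.87 ± 0.17), and Abcg1 at 5.58 to 7.40 against 19.001 to 32.4 (-2.03 ± 0.18), the opposite direction. Srebf1 (0.60 ± 0.15), Soat1 (0.67 ± 0.094) and Nr1h3 (0.56 ± 0.15) were higher and Nr1h2 lower (-0.54 ± 0.11) in neoAC CellC. Astrocyte markers summed to 7550 to 8750 CPM in neoAC CellC and 954 to 1461 in AdAC CellC, and ependymal and choroid plexus markers to 1761 to 2716 and 422 to 612 CPM. Oligodendrocyte markers summed to 277 to 360 and 4574 to 11680 CPM, and mural and fibroblast markers to 346 to 525 and 1114 to 1533 CPM. Their part in the comparison was not tested.

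Compared with NSCs, AGES had lower levels of the synthesis enzymes and higher levels of the export genes Apoe and Abca1. Of the 28 genes, 19 were lower in AGES than in NSCs (18 without Abcg1, which had few counts in both groups), 7 higher and 2 did not pass, where 34% of all genes tested were lower and 31.7% higher. Of the 18 enzymes 17 were lower and Hsd17b7 was higher, with a median log2 fold change of -1.44 against 0 for all genes. The oligodendrocyte precursor markers summed to 272 to 334 CPM in NSCs and 25.9 to 55.6 in AGES, and the neural stem cell markers to 2898 to 3687 and 1240.3 to 1658 CPM. Their part was not tested. Without NSC replicate 3, the library with the lowest enzyme levels of its group, the counts were the same and the median was -1.53. Fdps was at 40.9, 52.2, 29.7 and 38.1 CPM in the NSC libraries and 6.32, 7.80, 6.92 and 7.18 in AGES (-2.51 ± 0.13, adjusted p = 7.78e-15), and Acat2 at 245, 259, 202 and 259.7 and 50.1, 49.4, 45.5 and 41.5 (-2.37 ± 0.093, adjusted p = 1.92e-17). Every AGES library was far below every NSC library for both genes. Idi1 (-2.18 ± 0.18), Tm7sf2 (-2.17 ± 0.11) and Cyp51 (-1.91 ± 0.11) fell by similar amounts.

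Hmgcs1 was at 1057, 1012, 611 and 1025 CPM in NSCs and 833, 795, 567 and 645 in AGES (-0.38 ± 0.14, adjusted p = 0.0153), and NSC replicate 3 lay below 3 of the 4 AGES libraries. Its call and that of Sc5d, a sterol desaturase (-0.32 ± 0.11, adjusted p = 0.0152), were lost under DESeq2 size factors, no filter, at least 10 counts, DESeq2's Wald test and both fits of the compared groups (adjusted p from 0.0594 to 0.176), and leaving out NSC replicate 1 ended both (0.0693 and 0.0561). Hmgcs1 was also not called without NSC replicate 4 or AGES replicate 3, nor Sc5d without NSC replicate 2. Hsd17b7 was at 97.1, 68.3, 78.6 and 94.5 CPM in NSCs and 141, 106, 135 and 196 in AGES (0.77 ± 0.14, adjusted p = 3.98e-05). Srebf2 (-0.046 ± 0.098, adjusted p = 0.71) and Insig1 (-0.10 ± 0.16, adjusted p = 0.61) did not pass, while Srebf1 rose from 409.5 to 493 to 1096 to 1629.5 CPM (1.60 ± 0.15, adjusted p = 5.58e-10).

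Apoe was at 75.6, 86.9, 40.4 and 66.7 CPM in NSCs and 1049.8, 1019, 1187 and 837 in AGES, 15.2 times the level of the NSCs (3.92 ± 0.22, adjusted p = 3.03e-14). Abca1 was at 24.5, 14.7, 13.8 and 22.1 and 149, 127, 165 and 194 CPM (3.08 ± 0.18, adjusted p = 1.48e-13). Nr1h3 was counted 4, 9, 11 and 5 times in the NSC libraries and 49, 64, 64 and 54 times in AGES (3.01 ± 0.22, adjusted p = 6.15e-12), and Nr1h2 rose as well (0.73 ± 0.11). These genes had no overlap between the groups. Nr1h3 had few counts in NSCs, so the size of its fold change is uncertain. It was not tested with at least 10 counts in every library, where 6 members were higher. Abcg1 was counted 18, 27, 7 and 27 times in the NSC libraries and 3, 4, 6 and 2 times in AGES. It passed the filter only through the primary cells and a fit of these 2 groups alone gave no value for it, so no fold change is given for it here and nothing rests on its call. Soat1 was slightly higher in AGES (0.29 ± 0.093), with overlapping groups, and Stard4 was lower (-1.04 ± 0.12).

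Set against the cultured primary cells, AGES had higher synthesis enzymes than neoAC CellC. Against AdAC CellC the enzyme counts lay near the shares of all genes. Against neoAC CellC, 17 of the 28 genes were higher in AGES, 6 lower (5 without Abcg1) and 5 did not pass, where 34.1% of all genes tested were higher and 40.5% lower. Of the 18 enzymes 11 were higher, Mvk and Cyp51 were lower and 5 did not pass, with a median of 0.61 against -0.070 for all genes. Msmo1, 1 of the 5, was called lower under 6 alternatives (both other scalings, at least 10 counts, DESeq2's Wald test and both fits of the compared groups, adjusted p from 0.000687 to 0.0326). With scaling by library size only, 10 enzymes were higher and 4 lower, and Mvd was not called (adjusted p = 0.0694). The median of all genes was then -0.373, and that of the enzymes was also lower, as given in the last section. Hsd17b7 (1.63 ± 0.15), Sqle (1.05 ± 0.085) and Acat2 (0.94 ± 0.091) led the enzymes, and Hsd17b7 was at 106 to 196 CPM in AGES and 38.002 to 53.5 in neoAC CellC. Cyp51 (-0.23 ± 0.10, adjusted p = 0.0498) was at the edge of the threshold, with overlapping groups, and lost its call without AGES replicate 3 or 4 or without neoAC CellC replicate 1 or 4 (adjusted p from 0.0968 to 0.244).

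Srebf1 was 3.01 times as high in AGES as in neoAC CellC (1.59 ± 0.15, adjusted p = 5.55e-10), and Srebf2 (0.85 ± 0.098, adjusted p = 2.23e-08), Insig1 (0.74 ± 0.16, adjusted p = 0.000225), Stard4 (1.28 ± 0.12) and Soat1 (1.01 ± 0.094) were higher too. Of the LXR and export genes, Nr1h2 was higher (0.97 ± 0.11) and Abca1, Nr1h3 and Apoe were lower. Abcg1, with at most 6 counts in an AGES library, was counted 179 to 267 times in the neoAC CellC libraries, and no fold change or test is given for it against AGES. Abca1 was at 127 to 194 CPM in AGES and 609 to 674 in neoAC CellC (-2.03 ± 0.17, adjusted p = 1.19e-10), Nr1h3 at 1.78 to 2.05 and 6.10 to 6.65 (-1.75 ± 0.16), and Apoe at 837 to 1187 and 2880.3 to 3804 (-1.68 ± 0.20, adjusted p = 3.59e-08). The groups did not overlap in any of these 4 genes. Ependymal and choroid plexus markers summed to 53.7 to 78.1 CPM in AGES and 1761 to 2716 in neoAC CellC. Mural and fibroblast markers summed to 1.39 to 1.84 and 346 to 525 CPM, and oligodendrocyte markers to 24.9 to 46.3 and 277 to 360 CPM. The astrocyte marker sum was higher in AGES, with 55147 to 59892 against 7550 to 8750 CPM. Most of that gap was Gfap, at 48346 to 52936 against 2576 to 3143 CPM, and Aldoc was higher too. Aldh1l1, Aqp4, Gja1 and Gjb6 were lower in each AGES library than in each neoAC CellC library. The part of these cell types in the comparison was not tested.

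Against AdAC CellC, 12 of the 28 genes were higher in AGES, 11 lower (10 without Abcg1) and 5 did not pass, where 31% of all genes tested were higher and 45.2% lower and the median of all genes was -0.23. Of the 18 enzymes 6 were higher and 9 lower, with a median of -0.14, above that of all genes. Hsd17b7 (1.28 ± 0.15), Sqle (1.01 ± 0.085) and Hmgcs1 (0.86 ± 0.14) were highest relative to the adult cultures, and Mvk, mevalonate kinase (-1.24 ± 0.10), Idi1 (-1.12 ± 0.18) and Msmo1 (-1.05 ± 0.14) lowest. With scaling by library size only, 3 enzymes were higher and 9 lower, and the median of all genes was -0.45. Acat2 (0.20 ± 0.089, adjusted p = 0.0449) then had the opposite sign (-0.019, adjusted p = 0.852), and it lost its call in 6 of the 8 fits that left out 1 of the 8 libraries compared.

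Srebf1 had the largest difference among the sensing genes, with 1297, 1096, 1410 and 1629.5 CPM in AGES and 222, 306, 325 and 337 in AdAC CellC (2.19 ± 0.15, adjusted p = 1.44e-12). Srebf2 was higher in AGES (0.80 ± 0.098, adjusted p = 6.06e-08) and Insig1 did not pass (-0.26 ± 0.16, adjusted p = 0.145), although it was called lower under library size only (adjusted p = 0.00722) and under the filter of 10 counts per library (0.0458). Soat1 (1.68 ± 0.096) and Stard4 (1.14 ± 0.12) were higher. Apoe was higher in AGES, at 837 to 1187 against 197 to 310.2 CPM (1.92 ± 0.20, adjusted p = 3.94e-09), the reverse of its order against neoAC CellC. Abcg1 was counted 619 times or more in each AdAC CellC library and at most 6 times in AGES. Abca1 did not pass (-0.16 ± 0.17, adjusted p = 0.401) and was at 149, 127, 165 and 194 CPM in AGES and 109, 199, 193 and 206 in AdAC CellC. Without AdAC CellC replicate 1 it was called lower in AGES (-0.32, adjusted p = 0.0449). Nr1h2 was higher in AGES (0.43 ± 0.11) and Nr1h3 lower (-1.20 ± 0.16). Under library size only the call for Nr1h2 was lost (0.205, adjusted p = 0.0733). The oligodendrocyte marker sum of AdAC CellC, 4574 to 11680 CPM against 24.9 to 46.3 in AGES, moves with this comparison.

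**Figure D4:**
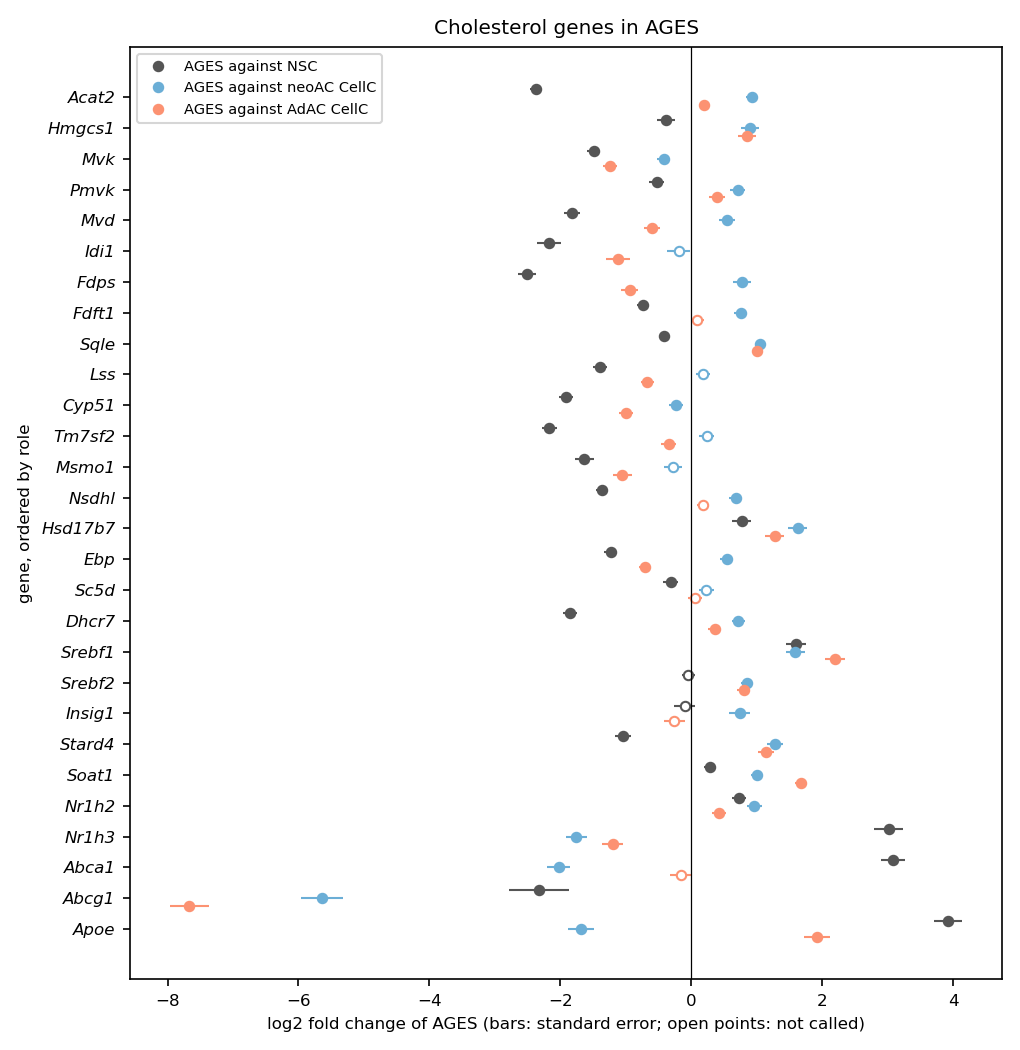
Log2 fold change of the 28 genes in AGES against NSC, neoAC CellC and AdAC CellC (points, with standard error bars; open points had an adjusted p of 0.05 or more). The enzymes lie left of 0 against NSC except Hsd17b7. Abcg1, with 2 to 6 counts in each AGES library, is drawn as fitted, but neither its values nor its calls are read.

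Across the 6 groups the export genes each had an order of their own. Apoe fell from neoAC direct (10302 ± 2449 CPM, SD, n = 4) through AdAC direct (5783 ± 795), neoAC CellC (3287 ± 462), AGES (1023 ± 144) and AdAC CellC (271 ± 51.2) to NSCs (67.4 ± 19.8), and each step passed the test. Abcg1 fell from AdAC direct (110 ± 1.81) through AdAC CellC (25.9 ± 5.64), neoAC direct (10.9 ± 2.50) to neoAC CellC (6.35 ± 0.776), above the means of NSCs (0.633 ± 0.304) and AGES (0.123 ± 0.0521). The steps among the 4 primary groups passed the test. The NSC libraries held 7 to 27 counts and the AGES libraries 2 to 6, so no order of NSCs and AGES is drawn for Abcg1. The order of Abca1 was neoAC direct (725 ± 25.8), neoAC CellC (646 ± 28.8), AdAC direct (259 ± 16.97), AdAC CellC (177 ± 45.2), AGES (159 ± 28.3) and NSCs (18.8 ± 5.29), in which neither the first pair nor AdAC CellC and AGES were told apart. Nr1h3 ran from 9.67 ± 1.01 CPM in AdAC direct to 0.230 ± 0.1003 in NSCs, and the 2 neonatal groups between them were not told apart.

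**Figure D5:**
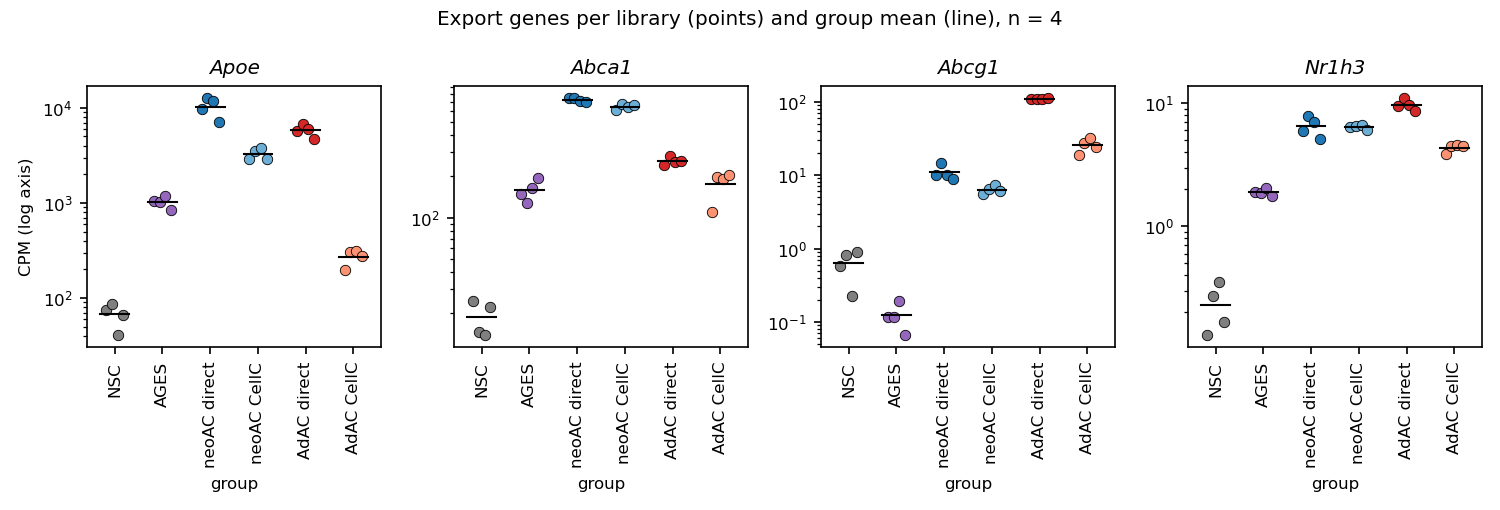
CPM of Apoe, Abca1, Abcg1 and Nr1h3 in each library (points, log axis) with the group mean (line, n = 4). NSC is the lowest group for Apoe, Abca1 and Nr1h3, and Abcg1 is near the floor in both NSC and AGES.

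The sensing genes had narrower ranges. Srebf2 lay between 298 CPM in neoAC CellC and 555 in NSCs, where NSCs, AGES and neoAC direct were not told apart as neighbours and neither were the other 3 groups. Insig1 was highest in neoAC direct (338 ± 19.9 CPM) and lowest in neoAC CellC (81.2 ± 12.96), and the 4 groups between them were not told apart as neighbours. Srebf1 was highest in AGES (1358 ± 223 CPM) and lowest in AdAC CellC (298 ± 51.7).

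Other genes of the pathway were examined in lists by function, and their counts are to be read against the shares of all genes called in each comparison given above. Several lie near those shares. All 9 SREBP targets of fatty acid synthesis fell in neonatal culture (31.3% of all genes), led by Fasn, fatty acid synthase (-1.82 ± 0.16), and Fads2, a desaturase (-1.75 ± 0.12). In adult culture 6 of the 9 fell and 1 rose, where 39.2% and 38.8% of all genes did. The 1 was Acly, which makes cytosolic acetyl-CoA (0.54 ± 0.077), and Acss2, the acetyl-CoA synthetase, fell most (-1.58 ± 0.17). In AGES against NSCs 3 of the 9 were higher and 5 lower (31.7% and 34% of all genes), with Elovl6, an elongase, at -2.84 ± 0.14. Against neoAC CellC 6 were higher and 2 lower (34.1% and 40.5% of all genes), and against AdAC CellC 4 and 4 (31% and 45.2%). Scd1, a stearoyl-CoA desaturase, led both (2.65 ± 0.12 and 2.92 ± 0.13). In neoAC direct 7 of the 9 were higher than in AdAC direct (35% of all genes), led by Fads2 (2.27 ± 0.13). In neoAC CellC 5 were higher and 3 lower than in AdAC CellC (28.5% and 35.2% of all genes).

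The SREBP processing machinery (Scap, Insig2, Mbtps1 and Mbtps2) had log2 fold changes between -0.23 and 0.14 in neonatal culture, with adjusted p of 0.118 or more. In adult culture Mbtps1, a protease that cuts SREBPs, rose (0.53 ± 0.059) and Scap, their escort, fell (-0.23 ± 0.086). In AGES against NSCs Insig2 rose (0.90 ± 0.14) and Mbtps2 fell (-1.54 ± 0.13). Of the 7 genes of lipoprotein uptake and lysosomal release, 6 fell and 1 rose in neonatal culture, where 31.3% and 34.4% of all genes did. The falls were led by Mylip, an LXR-driven ligase that degrades lipoprotein receptors (-2.37 ± 0.23), and Vldlr, the very low density lipoprotein receptor (-1.54 ± 0.18). In adult culture 3 of the 7 rose and 2 fell, where 38.8% and 39.2% of all genes did, led by the receptor gene Scarb1 (1.23 ± 0.20). In AGES 4 were higher and 1 was lower than in NSCs (31.7% and 34% of all genes). Against neoAC CellC 6 were higher and 1 lower (34.1% and 40.5%), and against AdAC CellC 4 and 1 (31% and 45.2%).

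Of the 10 genes of lipoprotein assembly and LXR partners or targets, 4 rose and 3 fell in neonatal culture, near the 34.4% and 31.3% of all genes. In adult culture 2 rose and 7 fell, where 38.8% and 39.2% of all genes did. Lpl, lipoprotein lipase, had the largest rise in adult culture (4.69 ± 0.20), and Apod, an apolipoprotein also made by oligodendrocytes, the largest fall (-2.95 ± 0.24). In AGES against NSCs 5 rose and 5 did not pass, led by Clu, clusterin (5.23 ± 0.14), and Pltp, the phospholipid transfer protein (4.45 ± 0.21). Of all genes 31.7% rose there. Against neoAC CellC 3 were higher in AGES and 6 lower (34.1% and 40.5% of all genes). Against AdAC CellC 3 were higher and 6 lower as well (31% and 45.2%). Lpl was at 0.0320 to 0.145 CPM in AGES and 34.1 to 42.5 in neoAC CellC, and Apod at 0.449 to 0.955 and 17.8 to 28.6 CPM. Of the 5 oxysterol enzymes, Cyp46a1 was higher in AGES than in AdAC CellC (1.47 ± 0.22). Cyp7b1 was at 0 to 0.0780 CPM in AGES and 13.9 to 15.5 in neoAC CellC. Ch25h had no count in any AGES library and was at 0.798 to 1.49 CPM in AdAC CellC, so no fold is given for it. Cyp46a1, which makes the main brain oxysterol, was also higher in AGES than in NSCs (3.98 ± 0.26). Cyp27a1 was lower in neoAC direct than in AdAC direct (-6.40 ± 0.22).

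Some counts are less certain than others, since whether the authors' counting used the strand was not stated and near-identical copies could share reads. Acat2 has a copy, Acat3, which matches 65.6% of its transcript at 97.7% identity, and Fdft1 and Idi1 have pseudogene copies over 33.8% and 22.6% of theirs. Exons of Fdps overlap Gm43738 on the same strand over 26.7% of their length and those of Tm7sf2 overlap Vps51 over 12.1%, and exons of Fdft1 overlap Ctsb on the opposite strand over 18.3%. Levels of these genes carry that uncertainty.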

How the data were processed

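The deposited values are raw gene counts without normalization. Per the labels and the methods of the study, the authors prepared poly(A) libraries with a stranded kit, ran them paired-end, mapped reads with STAR 2.7.3a (GRCm38) and counted them per gene with featureCounts on Gencode exons. Whether the counts used the strand was not stated. Genes were matched by identifier to Gencode vM21 (99.31% found, all 28 members). The lowest library total was 27904126 counts, and counts of the members other than Abcg1 and Nr1h3 were 119 or more in every library.

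The analysis used edgeR 4.0.16 under R 4.3.3. Genes passing filterByExpr were scaled by TMM and fitted with the robust quasi-likelihood model in 1 fit of 6 groups. The 7 comparisons and the interaction were tested two-sided with Benjamini-Hochberg adjustment over all 19691 genes and a threshold of 0.05. A standard error is the size of the log2 fold change over the root of F, and CPM were TMM-scaled. Means of log2 CPM used a prior count of 2. P-values measure the spread between isolations or cultures. No 2 libraries agreed within sampling noise.

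Alternatives were DESeq2 1.42.0 size factors, library size only, no filter, a minimum of 10 counts in each library, an added fold criterion (over 1 on the log2 scale), DESeq2's Wald test, fits of the compared groups alone with and without a replicate block, and leaving out each replicate. On simulated data for AGES against NSC (15043 genes), edgeR recovered 69 of 93 genes changed by 1 and 99 of 107 changed by 2 on the log2 scale, with 8 false calls.

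In each comparison, full values were given for up to 10 members, those called with the largest change plus Srebf2, Insig1, Abca1 and Apoe, and the rest by counts or fold changes. Members in which a library stood apart, the Ebp, Fdft1, Acat2, Cyp51, Pmvk, Hsd17b7, Hmgcs1 and Sc5d calls near the threshold, and further members given by fold change were named after their values were seen. The 28 members and all gene lists were chosen with earlier results of these data known. Some genes of the pathway are not analysed here.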

Additional observations from a re-analysis of the deposited data

Results flagged for a closer look

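In 6 of 168 groups of 4 libraries, 1 library lay apart from the other 3 by more than Dixon's criterion for 4 values allows. Chance gives about 1 in 20 groups. Hmgcs1 was low in NSC replicate 3 (610.7 CPM) and high in neoAC CellC replicate 4 (443.4 CPM). Sc5d was high in neoAC direct replicate 4 (275.8 CPM), and Dhcr7 was low in neoAC CellC replicate 2 (36.84 CPM). In AdAC CellC replicate 1, Nr1h3 (3.898 CPM) and Abca1 (109.4 CPM) were both low.

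The change in culture differed between adult and neonatal cells in 26 of the 28 genes, by the interaction test (28 under library size only). The differences, adult minus neonatal on the log2 scale, were as follows for the enzymes up to squalene: Acat2 2.629, Hmgcs1 2.874, Mvk 2.515, Pmvk 1.532, Mvd 2.758, Idi1 3.093, Fdps 3.942 and Fdft1 1.645. For the later enzymes they were Sqle 1.336, Lss 2.364, Cyp51 3.191, Tm7sf2 2.336, Msmo1 1.044, Nsdhl 1.869, Hsd17b7 1.647, Ebp -0.3393, Sc5d 1.102 and Dhcr7 1.271. For the other members they were Srebf1 -1.124, Srebf2 0.599, Insig1 2.069, Stard4 2.818, Soat1 -0.6337, Nr1h3 -1.128, Abcg1 -1.309 and Apoe -2.769.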

How the results depend on the processing

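Of the fold changes of single members under the alternatives other than the fold criterion, 3384 of 3566 kept their direction and side of the threshold, 72 lost a call and 39 gained one. The sign turned in 71, of which 70 were not called in either setting. The other was Acat2 in AGES against AdAC CellC under library size only (-0.01946). Among these alternatives, apart from left-out libraries, calls changed most often under library size only (14 of 224) and without the filter (12 of 224). With at least 10 counts in every library, Abcg1 and Nr1h3 were no longer tested, 9 of the remaining 208 changed, and in neoAC direct against AdAC direct 3 members were lower. An absolute log2 fold change over 1 ended 80 of 193 calls. It left 3 higher and 7 lower in adult culture, 0 higher in neonatal culture, 4 higher in AGES against NSCs, 5 higher against neoAC CellC, 6 higher and 5 lower against AdAC CellC, 2 higher and 4 lower in neoAC CellC against AdAC CellC, and 2 lower in neoAC direct against AdAC direct. Without the filter, 0 members were higher in neonatal culture, and Acat2 lost its call in adult culture (adjusted p = 0.0736). Leaving out 1 library kept each count of members within 1.5 times, between 17 and 19 for those lower in AGES against NSCs. It gave a call to Nsdhl (without AGES replicate 4 or AdAC CellC replicate 1) in AGES against AdAC CellC, to Tm7sf2 (without neoAC CellC replicate 3 or 4) and Sc5d (without neoAC CellC replicate 4) in AGES against neoAC CellC, to Msmo1 (without neoAC direct replicate 3 or AdAC direct replicate 4) in neoAC direct against AdAC direct, and to Nr1h2 (without neoAC direct replicate 4) in neonatal culture.

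Calls were also gained in AGES against neoAC CellC by Idi1 (library size only) and by Tm7sf2 and Sc5d (no filter), in AGES against AdAC CellC by Nsdhl, Fdft1, Sc5d and Abca1 under 1 to 4 alternatives, and in neoAC direct against AdAC direct by Msmo1 (replicate block). Library size only moved the median over all genes, on the log2 scale, from 0.041 to 0.271 in neonatal culture, from -0.070 to -0.373 in AGES against neoAC CellC and from -0.226 to -0.445 against AdAC CellC. Over all genes, calls then split into 8628 higher and 4468 lower in neonatal culture (6766 and 6170 under TMM) and into 4504 and 9822 in AGES against neoAC CellC (6710 and 7977 under TMM). The enzyme medians kept their sign there (-1.731, 0.3092 and -0.3635). In adult culture the enzyme median, near 0, turned positive under library size only (0.06163).

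Replicate numbers did not pair the samples: the correlation of deviations between libraries with the same number lay between -0.0953 and 0.106, and not every sample correlated best with its own number. With a replicate block in a fit of the compared groups, 0 members were higher in neonatal culture, and 9 of 223 calls changed, against 8 of 223 without the block. Abcg1 in AGES against NSCs had too few counts for these fits. Depth limits Abcg1 in AGES, at 2 to 6 counts. The causes of these changes were not tested.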
